A study of Mus musculus with 6 samples.

Results

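The genes of cholesterol synthesis and its control by the transcription factor SREBP2 were described in cultured mouse aortic endothelial cells that carried, or did not carry, a dominant negative form of the nuclear receptor PPARG. The 27 members were named by gene symbol: enzymes that lead from acetyl-CoA to cholesterol, the proteins that control SREBP2, the sterol carrier Stard4, the ubiquitin ligase Mylip and the fatty acid desaturases Fads1 and Fads2. Of these, 26 were read by at least 1 probe set (a group of short probes against 1 transcript) named for that gene alone, out of 18193 genes so named on the array. Acat2 had none. For each member the probe set of highest mean level was used, and all 26 passed the filter on low signal.

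Cholesterol is built from acetyl-CoA through mevalonate, isoprenoid diphosphates, squalene and lanosterol. When sterols run low in the endoplasmic reticulum, the escort protein SCAP carries SREBP2 to the Golgi, where proteases release the part that enters the nucleus and switches on most genes of the pathway. INSIG proteins hold the complex back when sterols are plentiful. Dividing cells need new membrane, and endothelial cells can both make cholesterol and take it up from lipoproteins.

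The non-transgenic group was 3 cultures from C57 mice without the transgene, and the transgenic group 3 cultures from C57 mice in which the CDH5 (vascular endothelial cadherin) promoter drove human PPARG with the V290M change. No treatment was given to either, and neither age nor sex is given in the sources used here. Each culture pooled cells of 2 mice, 5 cultures were set up per group and 3 of them were put on Affymetrix GeneChip arrays after amplification of about 50 ng of RNA. Replicates are therefore separate cultures, and n = 3 per group except where a culture is said to be left out.

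All levels below are log2(signal + 16), and a difference is the transgenic mean minus the mean without the transgene, with limma's standard error (SE). The trimmed mean signal was between 1494 and 1496 on the 6 arrays, but the median signal was lower on every transgenic array. It was 220.5, 219.9 and 222.9 in non-transgenic replicates 1 to 3 and 183.6, 186.1 and 173 in transgenic replicates 1 to 3. The ratio of 3' to 5' signal of the Gapdh control probe sets was 1.71, 1.55 and 1.51 in non-transgenic replicates 1 to 3 and 1.35, 1.20 and 1.44 in transgenic replicates 1 to 3. Transgenic replicate 3 stood apart from its group: over genes, its rank correlation averaged 0.972 against non-transgenic arrays but 0.907 against the other transgenic ones. Of 25 endothelial markers, 10 passed the level filter, while all 20 fibroblast markers did. Cdh5, whose promoter drove the transgene, lay under the filter of 7.72 on every array, between 6.74 and 7.19 without the transgene and between 5.56 and 6.81 with it, as did the endothelial marker Pecam1. In whole cultures, more RNA of a gene per cell and more cells of a type that expresses it cannot be told apart.

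Most cholesterol genes lay higher in the transgenic cultures on average, but no single member passed the test with all 6 arrays. The transgenic mean was above the non-transgenic mean for 23 of 26 members (88.5%), against 47.5% of the 11208 genes tested, and below it for 3 (11.5%), against 52.5%. The median difference was 0.48 over the members and -0.02 over all genes tested, and 10.7% of all genes lay at or above 0.48. limma called 0 members and 0 genes (0% of all) at a Benjamini-Hochberg adjusted p of 0.05, with a smallest adjusted p of 0.428. An unadjusted p under 0.05 was found for 5 members, all higher (Mvd, Msmo1, Fads1, Mvk and Pmvk). That is 19.2% of the members, against 6.47% of all genes in that direction. In the other direction it was 0 members, against 5.02% of all genes.

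The cultures did not contribute equally. All 3 transgenic cultures lay above all 3 non-transgenic ones for 5 members, Mvk, Pmvk, Mvd, Ebp and Fads1, which is 19.2% against 9.39% of all genes, and all 3 lay below for 0, against 6.72%. Transgenic replicates 1 and 2 were both above every non-transgenic culture for 16 of 26 members (61.5%, against 22.8% of all genes). Transgenic replicate 3 was above them for 9 (34.6%, against 38.4% of all genes), inside the non-transgenic range for 12 and below it for 5. The mean over the members, taken from the average of the non-transgenic group, was 0.25, -0.04 and -0.22 in non-transgenic replicates 1 to 3 and 0.39, 0.72 and 0.11 in transgenic replicates 1 to 3. Transgenic replicate 2 was the highest of the 6 cultures for 17 members. Non-transgenic replicate 3 was the lowest for 14. Within the non-transgenic group, replicate 1 was the highest for 22 of 26 members and replicate 3 the lowest for 18. These counts of highest and lowest cultures were not made over all genes, so whether they are particular to the members was not tested.

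**Figure D1:**
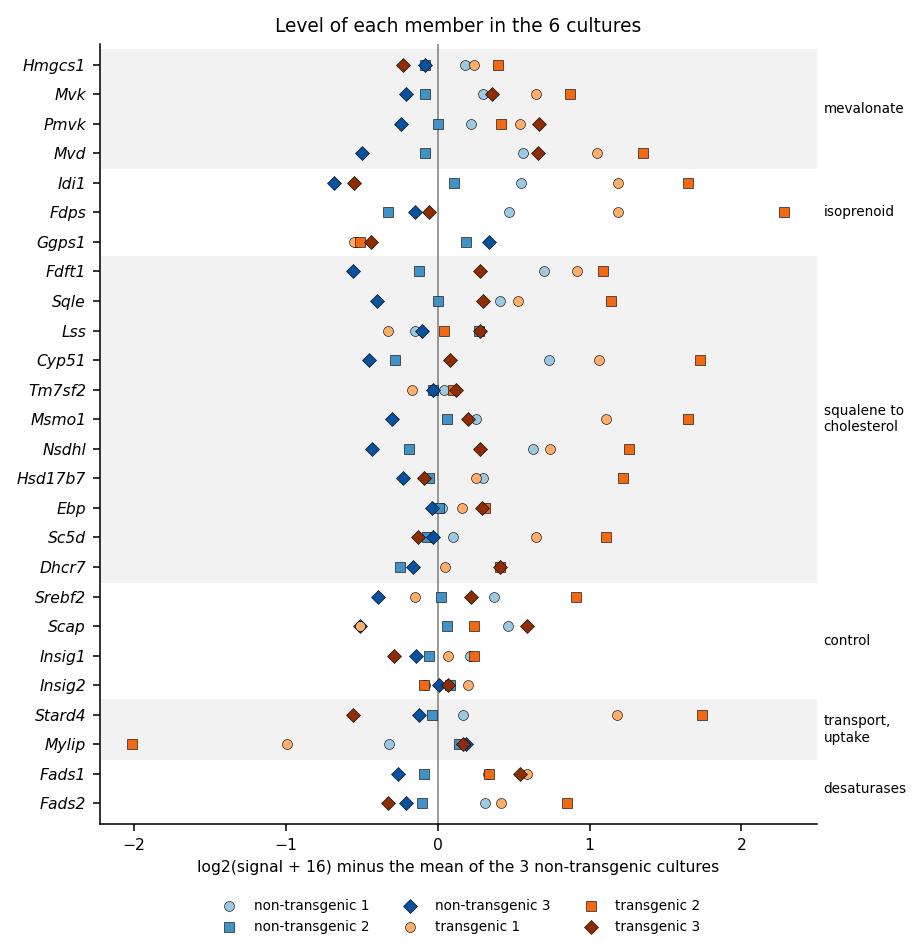
Level of each of the 26 members (rows, grouped by role) in each of the 6 cultures, as log2(signal + 16) minus the mean of the 3 non-transgenic cultures. Blue symbols are the non-transgenic and orange to brown symbols the transgenic cultures. Transgenic replicates 1 and 2 lay to the right for most enzymes, with Fdps in replicate 2 at 2.28, while transgenic replicate 3 was inside the non-transgenic range for 12 of 26 members.

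Transgenic replicate 3 was then left out, so that transgenic replicates 1 and 2 were set against the 3 non-transgenic cultures. That culture had been seen to stand apart from its group, and the p-values of this fit do not allow for that choice. In that fit limma called 8 members at an adjusted p of 0.05, against 0 when any other single array was left out. Higher were 7 (26.9%, against 6.88% of all genes): Msmo1, Stard4, Fdps, Sc5d, Idi1, Cyp51 and Mvd. Lower was 1, Mylip (3.85%, against 7.83% of all genes). The differences without that culture were 1.74 ± 0.36 (SE, 3.34-fold) for Fdps, 1.46 ± 0.24 (2.74-fold) for Stard4, 1.43 ± 0.35 for Idi1, 1.39 ± 0.36 for Cyp51, 1.38 ± 0.22 for Msmo1, 1.20 ± 0.33 for Mvd and 0.88 ± 0.20 for Sc5d. Their adjusted p ran from 0.0094 for Msmo1 to 0.0497 for Mvd, so Mvd passed only just. Mvk missed the threshold with an adjusted p of 0.0663. With estimated array weights, limma called 18 members, 15 higher (57.7%) and 3 lower (11.5%), against 22.8% and 26.3% of all genes. The weights in that fit were 0.553, 4.65 and 1.2 for non-transgenic replicates 1 to 3. For transgenic replicates 1 to 3 they were 5.24, 0.349 and 0.177, so its calls rest mostly on non-transgenic replicate 2 and transgenic replicate 1. The members' median difference was 0.24 without transgenic replicate 2 and 0.56 without transgenic replicate 3.

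**Figure D2:**
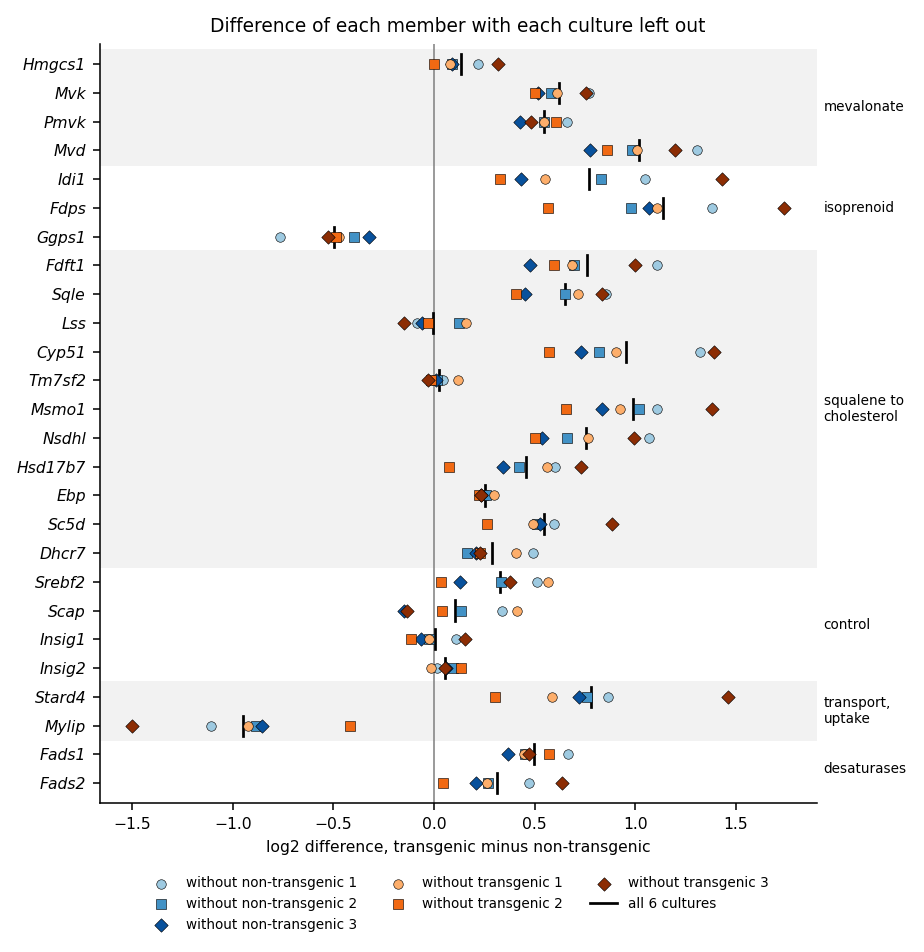
Difference between the groups for each member with all 6 cultures (black bars) and with each culture left out in turn (symbols), in log2 units. Leaving out transgenic replicate 3 moved Fdps from 1.14 to 1.74 and Stard4 from 0.78 to 1.46, while leaving out transgenic replicate 2 moved Fdps to 0.57 and Mylip from -0.95 to -0.42.

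Promoter sequence is shown for the members with the smallest unadjusted p that had an entry in RefSeq's promoter table. Each is from a window with a match to the letters given below. Hmgcs1 was added because its window held the one SRE-like match among the members. Of the 27 members, 22 had an entry, with 28 windows of 250 bases before to 50 after a transcript start. In this pathway SREBP2 binds sterol regulatory elements and works with the factor NF-Y, which binds CCAAT boxes nearby. Both strands were searched for the SRE-like letters TCACNCCAC, for the E-box CACGTG and for the NF-Y box CCAAT, and within a member's window no matches overlapped. The last of these was found in at least 1 window of 19 of the 22 members (86.4%), against 41.1% of 27025 genes with an entry, and in 19 of 28 windows (67.9%) against 37.4% of 32851. The members without it were Acat2, Scap and Fads2. The E-box was in 6 of the 28 windows (21.4%, against 7.15% of all), which are windows of 5 members because the overlapping Scap windows share 1 match, and TCACNCCAC in 1 (3.57%, against 1.24%). A match describes letters in a window and is not a binding site. The windows of Ggps1 and Mylip, both lower in the transgenic cultures, held 3 CCAAT matches each. Whether the boxes go with a member's difference was not tested. Below are the 250 bases before the start, from RefSeq's build GRCm38.p6, 5′ to 3′ on the gene's strand, with CCAAT boxes on either strand and the SRE-like match in capitals.
Mvd, chr8:122443423-122443672, minus strand: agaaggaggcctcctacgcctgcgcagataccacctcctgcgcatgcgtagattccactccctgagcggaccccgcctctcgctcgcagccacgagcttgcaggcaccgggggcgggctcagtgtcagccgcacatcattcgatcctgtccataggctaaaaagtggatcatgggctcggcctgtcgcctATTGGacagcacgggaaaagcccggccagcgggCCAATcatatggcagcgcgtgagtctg
Mvk, chr5:114444019-114444268, plus strand: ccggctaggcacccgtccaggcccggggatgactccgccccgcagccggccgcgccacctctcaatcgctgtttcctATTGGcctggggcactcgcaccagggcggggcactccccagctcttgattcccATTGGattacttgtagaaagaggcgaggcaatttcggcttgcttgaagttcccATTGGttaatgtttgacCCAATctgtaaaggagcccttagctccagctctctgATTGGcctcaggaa
Pmvk, chr3:89454291-89454540, plus strand: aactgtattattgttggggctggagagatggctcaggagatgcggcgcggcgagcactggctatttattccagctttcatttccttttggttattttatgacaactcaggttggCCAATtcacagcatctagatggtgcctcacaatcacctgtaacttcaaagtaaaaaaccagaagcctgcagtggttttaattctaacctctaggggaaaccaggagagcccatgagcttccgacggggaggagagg
Msmo1, chr8:64733579-64733828, minus strand: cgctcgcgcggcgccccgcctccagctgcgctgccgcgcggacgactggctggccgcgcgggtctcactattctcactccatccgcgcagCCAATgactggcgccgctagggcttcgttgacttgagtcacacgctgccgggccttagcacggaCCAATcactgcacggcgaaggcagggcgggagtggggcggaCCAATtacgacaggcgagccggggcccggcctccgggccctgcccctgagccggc
Nsdhl, chrX:72918271-72918520, plus strand: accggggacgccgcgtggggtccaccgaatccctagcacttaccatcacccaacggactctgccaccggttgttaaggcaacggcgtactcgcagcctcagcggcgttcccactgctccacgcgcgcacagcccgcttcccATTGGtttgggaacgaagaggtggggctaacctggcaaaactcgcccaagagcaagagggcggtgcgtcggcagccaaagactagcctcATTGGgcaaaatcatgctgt
Hmgcs1, chr13:119690101-119690350, plus strand: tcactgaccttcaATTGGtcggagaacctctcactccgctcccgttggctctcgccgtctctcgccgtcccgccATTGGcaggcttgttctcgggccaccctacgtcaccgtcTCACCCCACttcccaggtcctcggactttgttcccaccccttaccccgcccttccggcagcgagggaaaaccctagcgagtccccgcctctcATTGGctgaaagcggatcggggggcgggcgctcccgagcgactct

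The enzymes of the mevalonate steps lay higher in all 4 measured members, against 47.5% of all genes. In 3 of the 4, which are among the 5 members named above, all transgenic cultures lay above all others, against 9.39% of all genes. Mvd, which decarboxylates mevalonate diphosphate to isopentenyl diphosphate, was at 9.84, 9.20 and 8.78 in non-transgenic replicates 1 to 3 and at 10.33, 10.63 and 9.94 in transgenic replicates 1 to 3. The lowest transgenic culture, replicate 3, lay just above the highest non-transgenic one. The group means were 9.28 ± 0.54 and 10.30 ± 0.34 (SD, n = 3 each), a difference of 1.02 ± 0.34 (SE) or 2.03-fold (limma adjusted p = 0.428). Its promoter, shown above, holds 2 CCAAT boxes. Its second probe set differed by 0.73 and its groups overlapped.

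Mvk and Pmvk encode the kinases that phosphorylate mevalonate in turn. Mvk was at 10.52, 10.14 and 10.01 without the transgene and at 10.87, 11.09 and 10.58 with it. Here too the gap between the groups was narrow, from 10.52 in non-transgenic replicate 1 to 10.58 in transgenic replicate 3. The difference was 0.62 ± 0.24 (SE; limma adjusted p = 0.428), and the second Mvk probe set differed by 0.73 with groups that overlapped. For Pmvk, the non-transgenic values were 10.66, 10.44 and 10.20 and the transgenic ones 10.98, 10.86 and 11.11. In contrast to the other kinase, its highest value was in transgenic replicate 3. It differed by 0.55 ± 0.22 (SE; limma adjusted p = 0.428). The windows of these kinases shown above hold 5 and 1 CCAAT boxes, and a second Pmvk window, at another transcript start, holds 0.

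Hmgcs1 makes HMG-CoA and is a classic SREBP2 target, with the SRE-like match shown above. On the probe set used it was at 14.08, 13.82 and 13.82 against 14.14, 14.30 and 13.67 in the transgenic cultures. These groups overlapped, transgenic replicate 3 being the lowest of all 6. The difference was 0.13 ± 0.18 (SE), with a 95% interval from -0.28 to 0.54. Of its 4 other probe sets, 3 differed by 0.36, 0.37 and 0.46 and 1 by -0.02. All 5 were highest in transgenic replicate 2.

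Among the isoprenoid enzymes, Idi1 and Fdps lay far higher in transgenic replicates 1 and 2 and not in replicate 3, while Ggps1 lay lower in every transgenic culture than the non-transgenic mean. Fdps, which makes farnesyl diphosphate, had the highest difference of all members over the 6 arrays, 1.14 ± 0.54 (SE; 2.20-fold; limma adjusted p = 0.449). It was at 10.82, 10.02 and 10.20 without the transgene and at 11.54, 12.63 and 10.29 with it, so replicate 3 lay inside the non-transgenic range. Idi1, the isomerase of isopentenyl diphosphate, gave 11.26, 10.82 and 10.03 against 11.90, 12.36 and 10.16 with the transgene. The same order of transgenic cultures was seen, with a difference of 0.77 ± 0.57 (SE; limma adjusted p = 0.583). Its second probe set differed by 0.75.

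Ggps1 makes geranylgeranyl diphosphate for protein prenylation, a branch off the sterol route. Its levels were 12.06, 12.79 and 12.94 without the transgene and 12.05, 12.09 and 12.16 with it. The transgenic cultures lay close together, and non-transgenic replicate 1 lay among them. The difference was -0.50 ± 0.24 (SE; limma adjusted p = 0.449), and over the 4 probe sets of the gene the differences were -0.56, -0.50, -0.12 and 0.04.

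From squalene to cholesterol, 10 of 11 enzymes had a higher transgenic mean, against 47.5% of all genes. The median was 0.55 over the 11, and for Lss the difference was close to 0. Msmo1, the methyl sterol oxidase that starts the removal of methyl groups from lanosterol's products, showed the smallest p in this group. Its values were 12.31, 12.12 and 11.76 against 13.17, 13.71 and 12.26. Replicate 3 of the transgenic group was just below the highest non-transgenic culture, so the groups overlapped by 1 culture. The difference was 0.99 ± 0.35 (SE; 1.98-fold; unadjusted p = 0.0227, limma adjusted p = 0.428). The second Msmo1 probe set, whose mean of 8.28 was near the filter, differed by -0.36. The 250 bases before its start hold 3 CCAAT boxes.

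Cyp51, which demethylates lanosterol, was at 12.21, 11.20 and 11.03 without the transgene and at 12.54, 13.21 and 11.56 with it. Non-transgenic replicate 1 exceeded transgenic replicate 3. The difference was 0.96 ± 0.46 (SE; limma adjusted p = 0.449) and on its other probe sets 1.06 and 0.19. Nsdhl, a dehydrogenase of the steps that Msmo1 starts, gave 11.35, 10.53 and 10.29 against 11.46, 11.98 and 11, a difference of 0.75 ± 0.35 (SE; limma adjusted p = 0.446). Hsd17b7, the ketoreductase of those steps with Msmo1, was at 10.72, 10.36 and 10.19 against 10.67, 11.64 and 10.33, and only transgenic replicate 2 exceeded the non-transgenic range. It differed by 0.46 ± 0.36 (SE; limma adjusted p = 0.599).

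Fdft1 and Sqle commit isoprenoids to sterols, as squalene synthase and squalene epoxidase. Fdft1 was at 12.19, 11.37 and 10.93 against 12.41, 12.58 and 11.77, and its difference was 0.76 ± 0.35 (SE; limma adjusted p = 0.443), with 0.44 on the other probe set above the filter. Sqle was at 11.01, 10.60 and 10.20 against 11.13, 11.74 and 10.90, and its difference was 0.65 ± 0.31 (SE; limma adjusted p = 0.445). For both, transgenic replicate 3 lay above non-transgenic replicates 2 and 3 and below replicate 1. Lss, which closes the sterol rings, was at 9.82, 10.24 and 9.87 against 9.64, 10.01 and 10.25. Its difference of -0.01 ± 0.26 (SE) had a 95% interval from -0.62 to 0.60. Its other 2 probe sets differed by 0.58 and 0.45 and median centring gave 0.26, so the sign for this gene depends on the probe set and the scaling.

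Sc5d, a sterol desaturase, was at 11.23, 11.06 and 11.10 against 11.78, 12.24 and 11, a difference of 0.55 ± 0.31 (SE; limma adjusted p = 0.494). On this probe set transgenic replicate 3 was the lowest of all 6 cultures while the other transgenic cultures were the highest. The other Sc5d probe set above the filter differed by 0.20, and there transgenic replicate 3 was the highest, at 10.73. Ebp, a sterol isomerase, varied little, from 11.60 to 11.67 without and from 11.80 to 11.95 with the transgene. The groups did not overlap, but the difference was only 0.25 ± 0.16 (SE; 1.19-fold; limma adjusted p = 0.522). Dhcr7, the reductase that yields cholesterol, differed by 0.29 ± 0.21, and non-transgenic replicate 1 and transgenic replicates 2 and 3 all stood at 12.74. Tm7sf2, a sterol reductase, ranged from 9.81 to 10.10 over the 6 cultures and differed by 0.02 ± 0.22, with a 95% interval from -0.49 to 0.53.

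**Figure D3:**
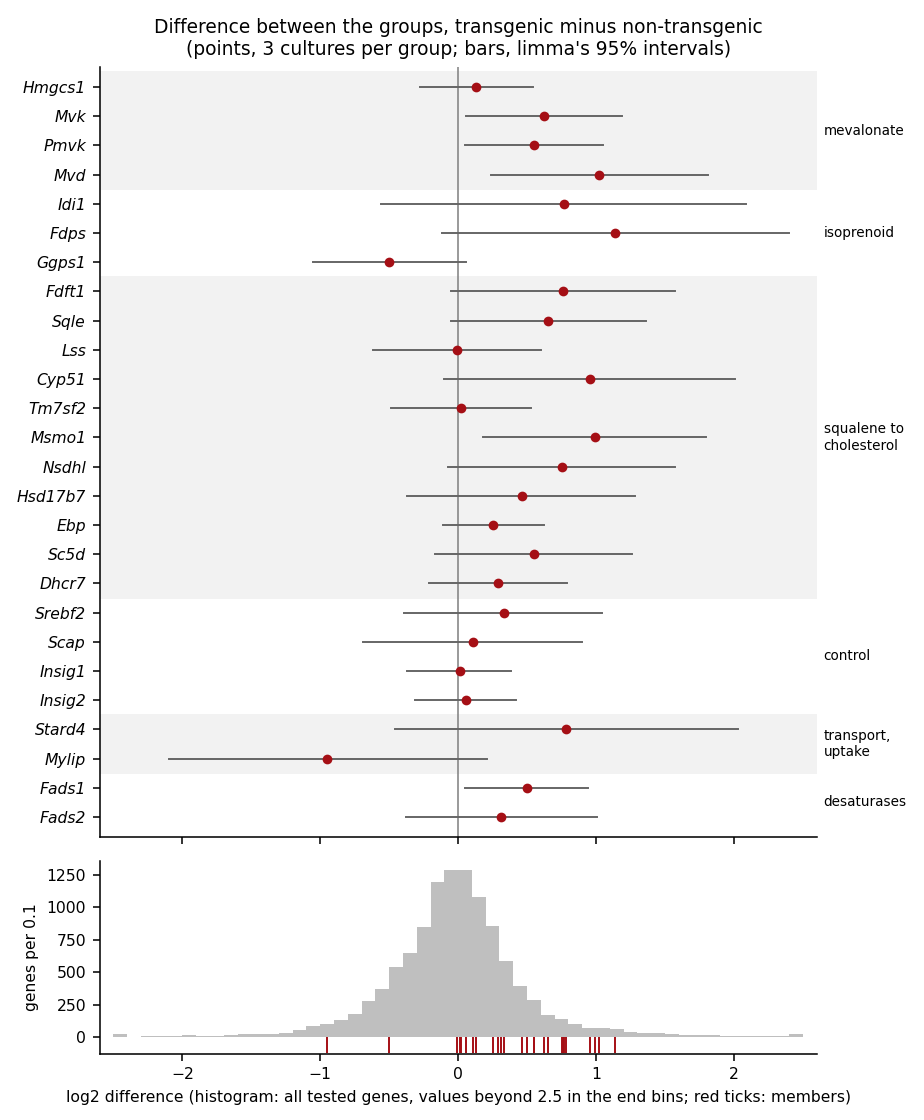
Upper panel: difference between the group means for each member (points, transgenic minus non-transgenic in log2 units, 3 cultures per group) with limma's 95% interval (bars). Lower panel: number of genes per 0.1 of log2 difference among the 11208 tested, with the 26 members as red ticks. The members' ticks lie mostly to the right of 0, from -0.95 for Mylip to 1.14 for Fdps, and none of the intervals was adjusted for the number of genes.

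The genes that control SREBP2 showed smaller differences than most enzymes, from 0.01 to 0.33 with a median of 0.08 over 4 genes, none of which passed the test. Srebf2, which encodes SREBP2, was at 12.18, 11.83 and 11.42 without the transgene. With it the values were 11.66, 12.72 and 12.03, and only replicate 2 exceeded the non-transgenic range. The difference was 0.33 ± 0.31 (SE; 95% interval -0.39 to 1.04; limma adjusted p = 0.668), and 0.96 on its second probe set. Scap, the sterol-sensing escort, gave 12.09, 11.69 and 11.12 against 11.12, 11.87 and 12.22. Both groups spread over about the same range, and the difference was 0.11 ± 0.34 (SE; limma adjusted p = 0.912).

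Insig1 is itself a target of SREBP2, and its protein holds the SCAP complex in the endoplasmic reticulum. It was at 14.44, 14.17 and 14.09 against 14.30, 14.47 and 13.94. The groups overlapped throughout, and the difference of 0.01 ± 0.16 (SE) had a 95% interval from -0.37 to 0.38 (limma adjusted p = 0.991). Its single probe set gives no second reading. Insig2, a relative with the same role, was at 12, 12.16 and 12.09 against 12.28, 11.99 and 12.15. Its 3 probe sets differed by 0.06, 0.03 and 0.06, all close to 0, and the 95% interval of the one used ran from -0.31 to 0.42.

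Stard4 and Mylip differed in opposite directions in the same cultures. Stard4, which carries sterols through the cytosol, was at 10.11, 9.90 and 9.82 without the transgene and at 11.12, 11.68 and 9.38 with it. Thus transgenic replicates 1 and 2 were above and replicate 3 below every non-transgenic culture. The difference was 0.78 ± 0.54 (SE; limma adjusted p = 0.556), and the other probe set above the filter differed by 0.84. Mylip encodes a ubiquitin ligase that is induced by the sterol-sensing receptor LXR and marks lipoprotein receptors for degradation. It was at 11.06, 11.52 and 11.57 against 10.39, 9.37 and 11.55. The first pair of transgenic cultures lay below the non-transgenic range and replicate 3 inside it. The difference was -0.95 ± 0.50 (SE; 1.93-fold lower; limma adjusted p = 0.468), and -1.50 ± 0.32 (limma adjusted p = 0.0226) without transgenic replicate 3.

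The desaturases Fads1 and Fads2 make long polyunsaturated fatty acids and respond to SREBP proteins. Fads1 was at 12.37, 11.95 and 11.78 against 12.63, 12.38 and 12.58. Transgenic replicate 2 exceeded non-transgenic replicate 1 by no more than 0.01, so the groups separated only just. The difference was 0.50 ± 0.19 (SE; 1.41-fold; limma adjusted p = 0.428), while a second probe set, whose mean of 7.81 was near the filter, differed by -0.51. Fads2 was at 12.68, 12.27 and 12.16 against 12.79, 13.22 and 12.04, a difference of 0.31 ± 0.30 (SE; limma adjusted p = 0.672). Its other probe sets differed by 1.22 and 0.63.

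Of the 26 members, 16 had several probe sets above the level filter, and in 11 of these all the probe sets had the same sign. In the other 5 (Hmgcs1, Ggps1, Lss, Msmo1 and Fads1) the signs differed. Over all 51 member probe sets above the filter, 43 lay higher and 8 lower in the transgenic group. The probe sets used for Mvd, Fdft1 and Hsd17b7 carry array suffixes for probes that can be shared with other transcripts, so their values may include another gene's signal.

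**Figure D4:**
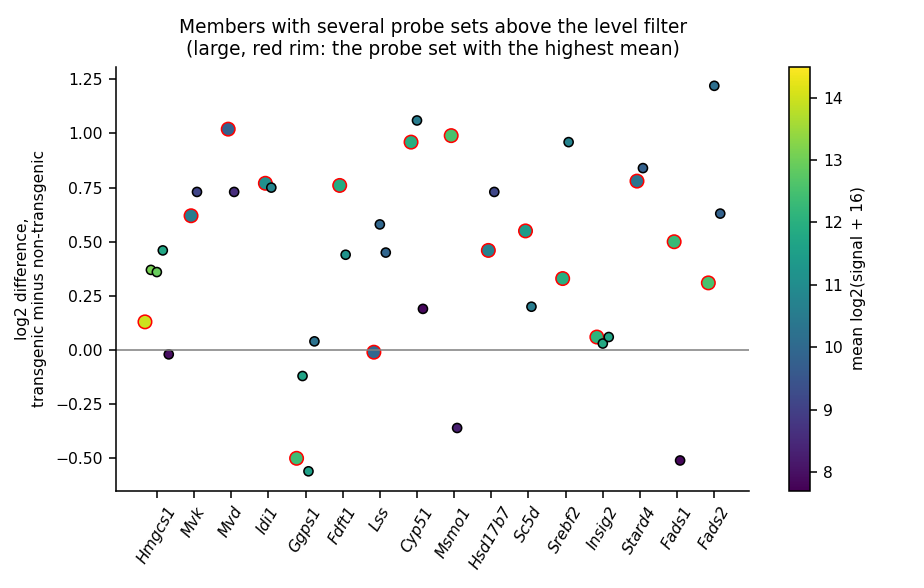
Difference between the groups for every probe set above the level filter of the 16 members that have several, in log2 units, coloured by mean level. Large points with a red rim are the probe sets used. The Insig2 probe sets lay together near 0, and those of Lss and Fads2 spread from -0.01 to 0.58 and from 0.31 to 1.22.

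The other genes of the pathway, taken as 4 lists, had median differences from 0.00 to 0.12, and no gene passed the test. Each list held 1 gene that was higher at an unadjusted limma p under 0.05, against 6.47% of all genes. Lower at that p was 1 gene, in the fatty acid list, against 5.02% of all genes. These counts are near what the shares over all genes give. Among 15 tested genes of sterol uptake, trafficking and oxidation, 9 lay higher and the median was 0.12. An unadjusted p under 0.05 was found for 1, Ch25h, which makes 25-hydroxycholesterol, an oxysterol that holds back SREBP processing. Ch25h was at 10.18, 10.90 and 10.83 against 13.19, 12.67 and 11.30, with no overlap and a difference of 1.75 ± 0.46 (SE; limma adjusted p = 0.428). Cyp27a1, another sterol hydroxylase, was at 10.99, 11.62 and 11.74 against 8.73, 7.60 and 11.86. Of the 6 cultures, transgenic replicates 1 and 2 were far below the rest, and the difference was -2.05 ± 0.95 (SE; limma adjusted p = 0.444). Scarb1, a receptor for high density lipoprotein, differed by 0.76 ± 0.37 (limma adjusted p = 0.449).

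Of 18 genes that process SREBP or degrade sterol-regulated proteins, 9 lay higher and 9 lower, with a median of 0.00. The Golgi proteases that release SREBP, Mbtps1 and Mbtps2, differed by -0.18 ± 0.19 and -0.17 ± 0.24, and by 0.09 and 0.10 with median centring. Erlin1, which binds cholesterol and restrains SREBP export, was at 11.54, 11.62 and 11.53 against 12.26, 12.30 and 11.65, and its difference was 0.50 ± 0.21 (SE; unadjusted p = 0.0486; limma adjusted p = 0.434). The ubiquitin ligases Marchf6 and Rnf139 differed by -0.48 ± 0.26 and -0.27 ± 0.17. Of 18 genes of prenylation, dolichol and ubiquinone synthesis, 12 lay higher with a median of 0.10. Dhdds, a subunit of the enzyme that makes dolichol's precursor, differed by 0.58 ± 0.22 (unadjusted p = 0.0289; limma adjusted p = 0.428), Trit1 by -0.36 ± 0.20 and Pdss2 by 0.28 ± 0.18.

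Genes of fatty acid synthesis, many of them targets of SREBP1, were mixed: 10 of 17 lay higher, with a median of 0.04. Their mean per culture was 0.49, -0.12 and -0.37 without the transgene. In transgenic replicates 1 to 3 it was -0.21, -0.30 and 0.10, where the cholesterol members gave 0.39, 0.72 and 0.11. The first pair of transgenic cultures was thus the highest of the 6 for the cholesterol members and not for fatty acid synthesis. Srebf1, which encodes SREBP1, was at 12.39, 11.11 and 10.61 against 11.08, 11.34 and 11.81, a difference of 0.05 ± 0.44 (SE). Lpin1, a phosphatidate phosphatase, was at 13.73, 13.00 and 12.83 against 12.21, 12.41 and 12.79, with no overlap (-0.72 ± 0.26, SE; limma adjusted p = 0.428). The citrate carrier Slc25a1, which supplies acetyl-CoA for both pathways, lay higher in all 3 transgenic cultures (0.67 ± 0.27, SE; limma adjusted p = 0.428). Thrsp, a lipogenic gene of fat and liver, ranged from 5.02 in transgenic replicate 2 to 12.90 in non-transgenic replicate 1 and differed by -2.93 ± 1.35 (limma adjusted p = 0.444). Relative to the non-transgenic mean it was at -2.48 and -5.45 in transgenic replicates 1 and 2. Thrsp was thus the lowest of the list there and weighed on the list's means. Other genes of the list also lay below their non-transgenic mean in both cultures, among them Lpin1 and Gpam, and others above it, among them Elovl6 and Slc25a1.

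Several marker lists varied over the same cultures. Of 27 tested cell cycle genes, 27 lay higher, and their mean was 0.61, -0.26 and -0.34 without the transgene against 1.84, 2.26 and -0.14 with it. The cultures that stood highest there, transgenic replicates 1 and 2, were also highest for the cholesterol members, and in both cases replicate 3 was within the range of the non-transgenic group. All 10 tested adipocyte markers lay lower, with means of 1.38, -0.46 and -0.92 against -1.59, -2.70 and -0.64. The summed signal of the 13 adipocyte markers on the array ran from 53268 to 106208 without and from 26492 to 46737 with the transgene. Above the filter were 10, 10 and 9 of them in non-transgenic replicates 1 to 3. In transgenic replicates 1 to 3 these were 6, 5 and 10, and the adipocyte hormone Adipoq was above it on every array. Leukocyte and macrophage markers summed to between 3473 and 5131 against between 5046 and 22856, the highest being transgenic replicate 2, where 11 of 20 were above the filter against 4 or 5 on every other array. Ptprc, which marks all leukocytes, was below the filter on every array, while Csf1r, Lyz2, Cd14 and Cd53 were above it on every array. The part of these lists, and of the Gapdh and beta-actin signal ratios, in the members' differences was not tested. The Gapdh ratio was lower in every transgenic than in every non-transgenic culture, so it cannot be told apart from the genotype. With it as a covariate the members' median was 0.18, against 0.12 for all genes, with 18 of 26 higher. With the beta-actin ratio, whose highest value was in transgenic replicate 3, the median was 0.29, against 0.03 for all genes, with 23 of 26 higher.

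**Figure D5:**
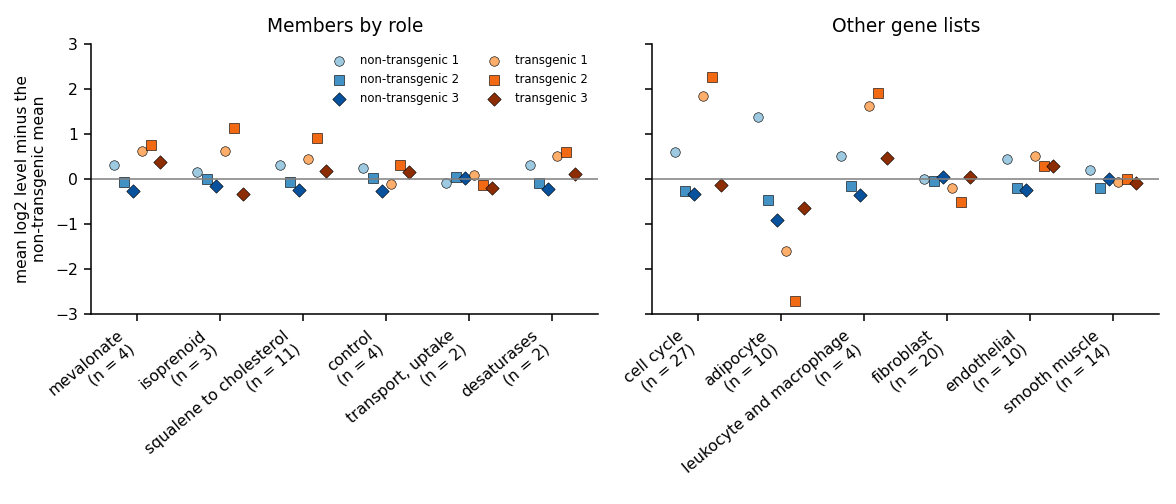
Mean log2 level of the members by role (left) and of 6 other gene lists (right) in each culture, relative to the mean of the non-transgenic cultures. Each symbol is 1 culture, and n is the number of genes averaged. Transgenic replicates 1 and 2 stood highest for the mevalonate, isoprenoid and sterol enzymes (0.62 and 0.76 for mevalonate) and for cell cycle genes (1.84 and 2.26), and lowest for adipocyte markers.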

How the data were processed

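RNA of 6 cultures was measured on Affymetrix mouse arrays. The authors deposited a linear intensity for every probe set, computed by MAS5 according to the submitters' processing notes. The sources used here give no version of it. Deposited values ran from 0.1 to 67821.8 over 45101 probe sets, 64 of them controls. Gene names came from GEO's array annotation, with symbols updated through RefSeq's gene table (GRCm38.p6). 34945 probe sets had 1 gene, 932 several and 9160 none listed. Some genes of the pathway are not reported here.

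Values were taken as log2(intensity + 16). For each gene the probe set of highest mean was used. Genes with a mean below 7.717 (a signal of 194), the median over non-control probe sets, were left out, and 11208 remained. Groups were compared with limma 3.58.1 under R 4.3.3 (two-sided, eBayes with a trend) and Benjamini-Hochberg adjustment at 0.05 over all genes tested. The fit was tested on simulated data. Of 80 genes on the other pathway lists, 71 had a probe set. Members, lists and the rule for naming genes (members, then the 3 of smallest p per list, with Srebf1, Mbtps1 and Mbtps2) were chosen with earlier results of these data known. Tried as alternatives were array weights, probe set rules, scalings, pseudocounts, filters, no variance trend, a replicate block, control signal ratios as covariates and leaving out each array. With 6 arrays, their number limits the precision.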

Additional observations from a re-analysis of the deposited data

How the results depend on the processing

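Over the 19 alternatives run, 13 of the 26 members kept the sign of their difference wherever they had a value, among them Mvd, Mvk, Pmvk, Msmo1, Fdps, Cyp51, Idi1, Fdft1, Sqle and Nsdhl. limma called 5504 genes and 18 members with array weights. With each array left out in turn it called 0 to 1649 genes and 0 to 8 members, the upper figures being without transgenic replicate 3. Every other alternative gave 0 calls. The members' median difference ran from 0.18 with the Gapdh ratio as a covariate to 0.74 with median centring, which moved the median of all genes to 0.25. With at most 3 cultures per group these values rest on few samples, and the cause of the changes below was not tested. The replicate block left 0 genes called and a members' median of 0.48, and same-numbered cultures, whose deviations from their group means correlated at 0.04, -0.28 and -0.03 over genes, share only a number.

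Signs turned as follows, the values being log2 differences. With the Gapdh ratio as a covariate they were -0.0783 for Hmgcs1, -0.114 for Insig1, -0.392 for Stard4, -0.0956 for Sc5d, -0.0820 for Hsd17b7, 0.0626 for Mylip, -0.0924 for Fads2, 0.341 for Mbtps1, 2.21 for Thrsp and 0.155 for Trit1. With the beta-actin ratio they were 0.0536 for Lss, -0.0842 for Insig1 and 0.00118 for Mbtps1. Quantile normalization gave 0.0626 for Lss, and median centring 0.262 for Lss, 0.0901 for Mbtps1 and 0.0999 for Mbtps2. The mean of all probe sets gave 0.342 for Lss, -0.0554 for Scap, -0.00539 for Fads1, 0.268 for Mbtps1 and -0.364 for Pdss2. Array weights gave -0.0490 for Srebf2, -0.121 for Tm7sf2, -0.413 for Scap and -0.00107 for Srebf1. With single arrays left out, the difference ran from -0.148 to 0.157 for Lss, from -0.112 to 0.153 for Insig1, from -0.0153 to 0.132 for Insig2, from -0.0284 to 0.117 for Tm7sf2, from -0.151 to 0.414 for Scap, from -0.334 to 0.555 for Srebf1 and from -0.336 to 0.0263 for Mbtps1.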
